A study of Mus musculus with 4 samples.

Results

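Testicular macrophages are the resident phagocytes of the testis, and here they were followed in 4 single-cell RNA libraries of immature mouse testis, of which 2 came from organ culture. Cells were taken as macrophages by transcripts alone: a barcode needed at least 500 genes, at most 20% mitochondrial UMIs, at least 5 UMIs of Tyrobp, Fcer1g, Cd68, Csf1r and Fcgr3 together, at least 0.05% of its UMIs from those 5 genes, and at most 2 UMIs of the germ cell genes Ddx4 and Dazl. A UMI is 1 counted mRNA molecule. This rule found 115 macrophages among 24851 deposited barcodes, of which 23670 passed the filter on genes and mitochondrial UMIs.

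Macrophages of the testis lie between the tubules beside the Leydig cells and flat against the tubule wall. They clear dead cells and debris, feed growth and steroid signals back to their neighbours, and belong to a tissue that is kept tolerant of its own germ cells. Long-lived resident macrophages carry scavenger receptors and the complement protein C1q, whereas macrophages that meet injury or microbes switch on chemokines, cytokines and enzymes driven by the transcription factor NF-kB.

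All 4 libraries came from C57BL/6 mice carrying a GFP transgene under the acrosin (Acr) promoter, which is active in maturing male germ cells and not in macrophages. The 9 dpp and 14 dpp libraries were made from uncultured testes at those days after birth. For the 2-day and 7-day culture libraries, testes were removed at 7 dpp, cut into fragments and kept in α-MEM plus AlbuMAX, a lipid-rich albumin, on agarose gel, beneath a ceiling chip of the silicone PDMS, so that age at removal plus days in culture came to 9 and 14. Tissue was dissociated with collagenase and trypsin and sequenced with a droplet 3′ kit, and every group is 1 library. Culture and library therefore cannot be told apart, the intervals below cover counting error only, and no p-value is given.

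The gated cells numbered 29 at 9 dpp, 10 in the 2-day culture, 59 at 14 dpp and 17 in the 7-day culture. As shares of the cells kept in each library these were 0.548% (95% Clopper-Pearson interval 0.367 to 0.786), 0.140% (0.0673 to 0.258), 0.931% (0.709 to 1.20) and 0.346% (0.202 to 0.554), so the share was lower in each cultured library than in the uncultured one it is paired with. Their median UMIs per cell were 10199, 8213, 8236 and 37246 in the same order, and the remaining cells had 8746.5, 3663, 6526 and 5631. Summed over the macrophages this gave 301236, 87247, 530441 and 607984 UMIs, so that 1 UMI was worth 3.32, 11.5, 1.89 and 1.64 CPM (UMIs per 1000000 UMIs of the macrophages of a library). The 2-day culture was thus the shallowest of the libraries for low genes, and 3 UMIs, taken here as the floor, came to 34.4 CPM there and to 4.93 CPM in the 7-day culture.

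Values of the gate genes chose these cells and are given as description only. The median count of gate UMIs was 92 at 9 dpp, 54.5 in the 2-day culture, 49 at 14 dpp and 143 in the 7-day culture. Near the threshold stood 1 cell with 5 to 7 gate UMIs and 1 with 4, both at 14 dpp, and 4 cells were left out by the germ cell limit. Csf1r, the receptor for the growth factor on which macrophages depend, was at 654, 138, 469 and 176 CPM in the order 9 dpp, 2-day culture, 14 dpp and 7-day culture. Of the 4 marker genes given for the type, C1qa alone lies outside the gate, and it had a UMI in 26 of 29, 4 of 10, 56 of 59 and 12 of 17 cells. These counts depend on depth, and a cell without a UMI is not shown to lack the gene. As a whole the identity markers stood far above the other cells: of 20 macrophage genes listed for this check, which include C1qa, 20, 19, 20 and 20 were detected, at a summed level of 30441, 10178, 19948 and 18655 CPM in macrophages against 28.2, 30.8, 35.8 and 48.6 CPM in all other cells.

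Some gated cells also held transcripts of other testis cells. Cells with at least 5 UMIs, and at least 0.1% of their UMIs, from markers of another class numbered 3, 1, 17 and 3. The 6 Leydig markers, which include Cyp11a1 and Star of steroid synthesis, summed to 6.64 CPM at 9 dpp, 11.5 in the 2-day culture, 1709.9 at 14 dpp and 0 in the 7-day culture, and at 14 dpp 20 of 59 cells had at least 1 of these UMIs and 11 were past that limit. The 10 Sertoli markers came to 1554, 80.2, 1346 and 41.1 CPM, with 440 UMIs from 1 cell at 9 dpp, and the 8 stromal and myoid markers to 236, 115, 977 and 347 CPM. Neutrophil, mast cell, dendritic, red cell, endothelial and pericyte lists were at 0 to 160 CPM, and a lymphoid list at 372, 11.5, 49.0 and 85.5 CPM. At 9 dpp 100 of its UMIs came from 1 cell, at 14 dpp 11 came from 1 cell, and in the 7-day culture 14 of 17 cells had at least 1, with at most 14 in a cell. Most of these are of Il7r, the interleukin 7 receptor gene, which stood at 82.2 CPM there and at 0 in both uncultured libraries. The doublet caller Scrublet marked 93 to 253 cells in each library and none of the 115 macrophages, 323 barcodes were found in more than 1 library, and none of these was a macrophage in 2. Most counts below are given again without the 24 cells that held another class's transcripts, a check added after the data were seen. Their part in the differences was not tested.

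The comparisons used 3940 genes with at least 50 UMIs over the macrophages of all libraries. A gene can reach this count limit through a single library where it is high, so counts and medians of the lists are partly set by the limit. A gene is called higher or lower where its log2 ratio of (CPM + 20) is past 2-fold, and folds in the text are plain ratios of CPM with 95% counting intervals. Values given in a run without labels follow the order 9 dpp, 2-day culture, 14 dpp and 7-day culture, and pairs of folds the order 2-day and 7-day pair. A fold written as "at least" sets a library without a UMI at the floor of 3 UMIs. The median log2 ratio over all genes was -0.28 in the 2-day culture over 9 dpp and -0.15 in the 7-day culture over 14 dpp, against -0.04 and 0.01 in the other cells of the same libraries.

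Most of the resident scavenger programme was lower in both cultured libraries. Of 12 measured genes of that list, 9 were lower and 2 higher in the 2-day culture than at 9 dpp, where 22.2% of all genes were lower and 8.45% higher, and the median log2 ratio was -3.32. In the 7-day culture over 14 dpp, 10 were lower and 2 higher, with 11.2% of all genes lower and 6.14% higher, and the median was -3.21. Without the cells holding another class's transcripts the counts were 9 and 2, and 10 and 2, with medians of -3.46 and -3.73. With genes that had no UMI set at the floor, the medians over all macrophages were -3.01 and -3.37.

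Cbr2, a carbonyl reductase gene, stood at 1036 CPM at 9 dpp and 1048 at 14 dpp and at 0 in both cultures. That is at least 30.1-fold and at least 212-fold lower. F13a1, the A subunit of coagulation factor XIII made by tissue macrophages, was at 1564, 34.4, 879 and 0 CPM in the order 9 dpp, 2-day culture, 14 dpp and 7-day culture, 45.5-fold lower (15.5 to 221) and at least 178-fold lower. Selenop, the secreted selenium carrier, was at 5955, 103, 2809 and 112 CPM, which is 57.7-fold (30.3 to 126) and 25.1-fold (19.7 to 32.5) lower. In cultured macrophages Selenop was no higher than in the other cells of the same library, which had 185 CPM at 2 days and 120.0 at 7 days.

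Endocytic receptors of the list, and a transcription factor, went the same way. Mrc1, the mannose receptor, was at 1029, 115, 615 and 23.0 CPM. Folr2, a folate receptor that marks resident macrophages, was at 339, 22.9, 409 and 13.2 CPM. Stab1, a clearance receptor for modified lipoproteins and dying cells, was at 664, 34.4, 302 and 36.2 CPM, and Maf, a transcription factor of the resident state, at 770.2, 45.8, 517 and 59.2 CPM. For these 4 genes neither culture came near its uncultured pair: the folds lower were between 8.98 and 19.3 at 2 days and between 8.34 and 31.1 at 7 days. Pf4, a platelet-type chemokine gene strong in resident macrophages, was an exception at 2 days, with 4601, 6522, 2986 and 1413 CPM.

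Of the list's members, 2 were higher in culture, and both are class A scavenger receptors. Msr1 was at 189 CPM at 9 dpp, 745 in the 2-day culture, 96.1 at 14 dpp and 383 in the 7-day culture, 3.94-fold (2.72 to 5.72) and 3.99-fold (2.93 to 5.51) higher. Marco, which binds bacteria and particles, was at 266, 1215, 17.0 and 3216 CPM, 4.57-fold (3.39 to 6.19) and 189.5-fold (99.6 to 415) higher. The scavenger receptors of the list thus did not differ as one set.

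C1q, the recognition molecule that starts the classical complement pathway and tags dying cells, was lower in both cultures. Its A, B and C chains come from 3 genes side by side at chr4:136880129-136898803 (GRCm38). C1qa was at 3891 CPM (95% Poisson interval 3671 to 4119.9) at 9 dpp, 275 (176 to 409) after 2 days of culture, 3778 (3614 to 3947) at 14 dpp and 574 (515 to 638) after 7 days. That is 14.1-fold (9.46 to 22.2) and 6.58-fold (5.87 to 7.40) lower. C1qb was 17.9-fold (10.4 to 33.7) and 5.28-fold (4.62 to 6.05) lower, and C1qc 42.2-fold (20.4 to 105) and 8.05-fold (6.94 to 9.36) lower.

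Cell by cell, the 3 chains together had a median of 11395 CPM at 9 dpp, 53.1 in the 2-day culture, 11530 at 14 dpp and 695 in the 7-day culture. After thinning each cell to 2000 UMIs, at least 3 C1q UMIs were left in 26 of 28 cells at 9 dpp and 2 of 10 after 2 days of culture, and in 51 of 57 at 14 dpp and 5 of 17 after 7 days. The highest cultured cells, at 2505 and 5128 CPM, lay below both uncultured medians. Germ cells of the same libraries reached 3 C1q UMIs in at most 0.2% of 500 cells.

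**Figure D1:**
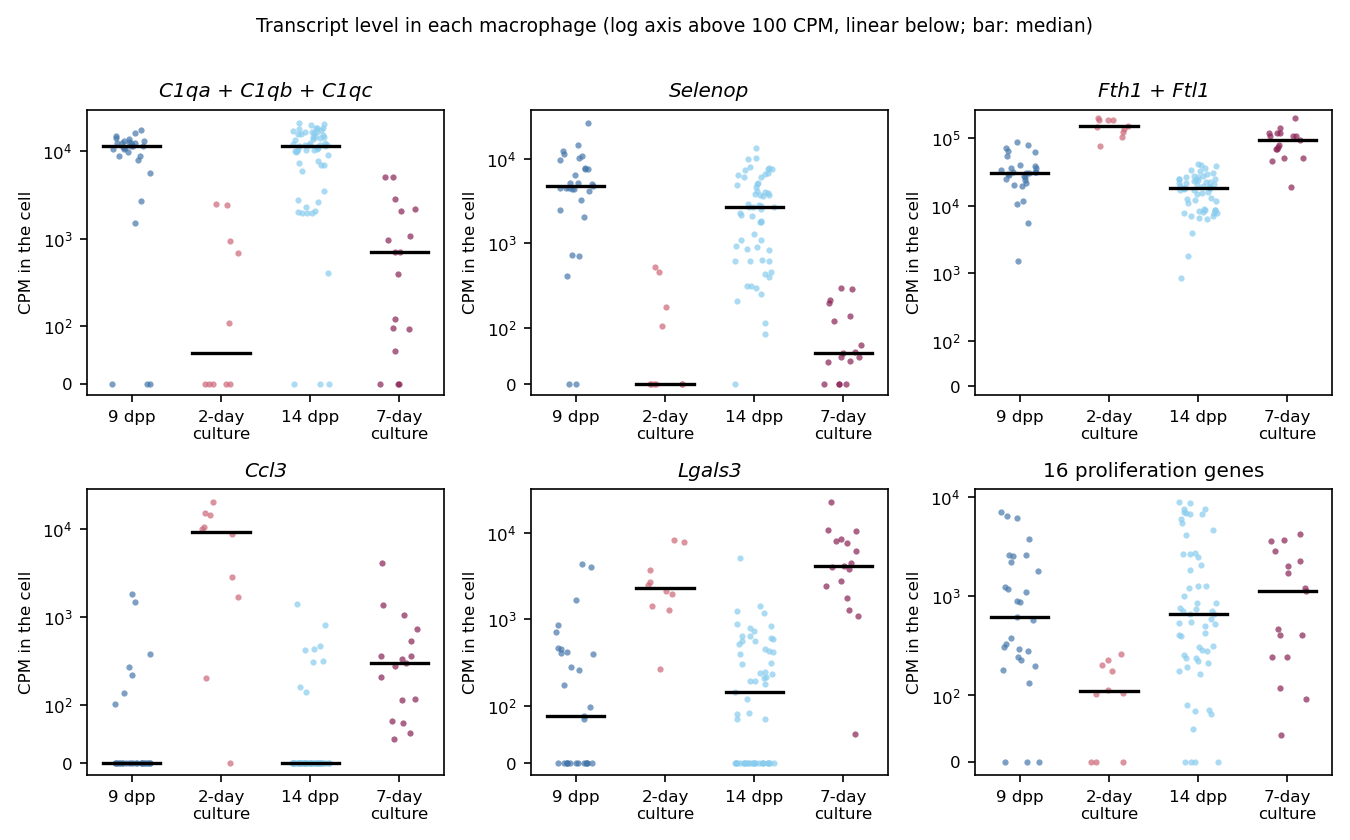
Each point is 1 macrophage and each bar a median, with the level in CPM on an axis that is linear to 100 and logarithmic above, for the C1q chains, Selenop, ferritin (Fth1 and Ftl1), Ccl3, Lgals3 and 16 proliferation genes in the 4 libraries. The C1q medians are 11395 and 11530 CPM in the uncultured libraries and 53.1 and 695 CPM in the 2-day and 7-day cultures, while ferritin and Lgals3 lie higher in culture.

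Among other genes lower in both pairs were Cx3cr1 and Apoe. Cx3cr1, the fractalkine receptor, was at 402, 0, 351 and 67.4 CPM, at least 11.7-fold and 5.20-fold (3.69 to 7.48) lower. Apoe, the lipid transport protein, was at 17179 CPM at 9 dpp, 3003 in the 2-day culture, 7309 at 14 dpp and 176 in the 7-day culture, 5.72-fold (5.05 to 6.50) and 41.5-fold (34.3 to 50.8) lower. In the other cells of the 7-day culture Apoe was at 1059 CPM, above the macrophages, whereas in both uncultured libraries the macrophages exceeded the rest, at 104 and 139 CPM. Hpgd, which inactivates prostaglandins, Fcgrt, the neonatal Fc receptor, and Ccl24, an eosinophil chemokine, were among the 10 genes lower in both pairs by the largest margin. Ccl24 was at 528 and 205 CPM in the uncultured libraries and at 0 in both cultures.

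That set of 10 also held Cst9, Clu, Cst12 and Aard, of which Clu and Aard are Sertoli markers. In 9 dpp macrophages 90.6% of the UMIs of Cst9, 92.0% of Clu, 95.8% of Cst12 and 94.6% of Aard came from 1 cell, and with the cells that held another class's transcripts left out the log2 ratios in the 2-day and 7-day pairs were -1.76 and -1.86 for Cst9, -0.80 and -1.50 for Clu, -0.57 and -1.73 for Cst12 and 0.02 and -0.96 for Aard.

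Over the 19 measured identity genes, 8 were lower and 2 higher in the 2-day culture over 9 dpp and 5 lower and 1 higher in the 7-day culture over 14 dpp, with medians of -0.32 and 0.11. In macrophages free of another class's transcripts, 8 were lower and 2 higher at 2 days and 7 lower and none higher at 7 days, with medians of -0.68 and -0.30. Subtracting the mean of germ cells gave medians of -1.09 and -1.12, which turns the 7-day direction and takes both past 2-fold, while it moved the median of all genes to 0.00 and 0.77. Lower shares of all genes in these pairs were 22.2% and 11.2%, as above, and the 3 C1q genes and Cx3cr1 are among the members that were lower in both. Aif1, a calcium-binding protein of macrophages, was also lower in both, at 883, 183, 601 and 227 CPM. Spi1, Adgre1 and Ctss were among the members within 2-fold in both pairs. Spi1, which encodes the lineage factor PU.1, was at 428 CPM at 9 dpp, 585 in the 2-day culture, 356 at 14 dpp and 505 in the 7-day culture. Adgre1, which encodes F4/80, was at 342, 447, 243 and 227 CPM, and Ctss, a lysosomal protease of antigen-presenting cells, at 1454, 2166, 1335 and 1653 CPM.

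Lyz2, the lysozyme gene, differed in opposite directions. It stood at 12847 CPM at 9 dpp, 2396 in the 2-day culture, 5296 at 14 dpp and 11706 in the 7-day culture, 5.36-fold (4.67 to 6.19) lower in the first pair and 2.21-fold (2.12 to 2.31) higher in the other. With the mean of germ cells subtracted and the rest scaled to CPM again, the 7-day value reversed to a log2 ratio of -0.10. That correction also moved the median of all genes in the 7-day pair to 0.77. It took away little Lyz2, as the 20 identity genes, Lyz2 among them, summed to 23.0 CPM in germ cells at 14 dpp and 37.0 in the 7-day culture.

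Promoters of the listed genes were searched for the core letters GAGGAAG bound by PU.1, on either strand, in the 250 bases before the start. A match was present in 6 of 11 resident scavenger genes with a RefSeq promoter and in 5 of 9 genes of the Fc and ITAM receptor list, the highest shares among the lists by function with more than 2 promoters, in 3 of 13 macrophage identity genes and in 3 of 10 of the most enriched genes, against 13.6% of 3138 genes tested and 10.6% of all 32851 promoters. The last 100 bases before the start are shown for genes with a match there, from the GRCm38.p6 table of RefSeq, 5′ to 3′ on the gene's strand, with the match in capitals (CTTCCTC is the same site on the other strand). They were chosen to set genes lower in culture beside genes within 2-fold and a higher gene. Cbr2 (chr11:120732022-120732121, minus strand) and F13a1 (chr13:37050245-37050344, minus strand) were lower in both cultures, Laptm5 (chr4:130913216-130913315, plus strand) and Wfdc17 (chr11:83703956-83704055, plus strand) stayed within 2-fold, and Mmp12 (chr9:7344297-7344396, plus strand) was found in culture only.
Cbr2: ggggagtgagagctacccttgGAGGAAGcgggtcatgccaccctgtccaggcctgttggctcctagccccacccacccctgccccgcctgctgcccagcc
F13a1: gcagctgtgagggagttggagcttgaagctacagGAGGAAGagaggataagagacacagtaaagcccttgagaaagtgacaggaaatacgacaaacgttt
Laptm5: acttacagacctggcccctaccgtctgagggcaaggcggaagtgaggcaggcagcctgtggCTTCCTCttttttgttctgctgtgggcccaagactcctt
Wfdc17: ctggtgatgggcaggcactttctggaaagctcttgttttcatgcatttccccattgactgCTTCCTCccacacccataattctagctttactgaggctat
Mmp12: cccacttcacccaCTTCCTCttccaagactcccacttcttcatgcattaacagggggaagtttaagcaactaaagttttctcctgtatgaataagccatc

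Among these hand-picked genes the same letters stood before genes that were lower, within 2-fold and higher over all macrophages. Of the 10 genes lower in both pairs by the largest margin, 4 of 7 with a promoter had a match, Cst9 among them. Of the 10 higher in both it was 2 of 9. A link between the letters and the direction was not tested. Laptm5, a lysosomal membrane protein of blood cells, was at 551, 332, 552 and 342 CPM, and Wfdc17, a secreted whey acidic protein family member, at 325, 642, 509 and 755 CPM. Mmp12, macrophage elastase, was at 0 CPM in both uncultured libraries, at 287 in the 2-day culture, all from 1 cell that also held another class's transcripts, and at 502 in the 7-day culture, where 8 cells had it and 69.1% of its UMIs came from 1 cell.

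Inflammatory mediators were higher in both cultured libraries, and more so at 2 days. Of 11 measured genes 10 were higher and none lower in the 2-day culture over 9 dpp, with a median log2 ratio of 4.53, and 9 were higher and none lower in the 7-day culture over 14 dpp, with a median of 2.16, where 8.45% and 6.14% of all genes were higher. In the other cells of the same libraries the medians of the list were 0.50 and 0.03. Over cells without another class's transcripts, 10 were higher in each pair, with medians of 4.32 and 2.32. The 7-day median was 2.50 with genes that had no UMI set at the floor, and 0.98, short of 2-fold, with genes of at least 1 UMI. Of the 24 listed genes 11 reached the count limit. Members such as Il1rn and Cxcl3, without a UMI in uncultured macrophages, reached it through the cultured ones alone, so the counts and medians are partly set by that limit.

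Il1a, the interleukin 1 alpha gene, was at 6.64 CPM at 9 dpp, 596 in the 2-day culture, 1.89 at 14 dpp and 23.0 in the 7-day culture. Tnf, the tumour necrosis factor gene, was at 19.9, 149, 7.54 and 37.8 CPM. Il1b was at 0, 206, 3.77 and 1.64 CPM, so this cytokine was above the floor in the 2-day culture alone, in 4 of 10 cells. Il10, an inhibitory cytokine, reached 264 CPM in the 2-day culture, and all of it came from 1 cell.

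Enzymes and receptors of the response were higher as well. Acod1, which makes the antimicrobial metabolite itaconate, had no UMI in either uncultured library and stood at 573 CPM in 9 of 10 cells at 2 days and 278 CPM in 12 of 17 cells at 7 days, at least 57.5-fold and at least 49.1-fold higher. Sod2, the mitochondrial superoxide dismutase induced by NF-kB, was at 156, 2992, 124 and 595 CPM, 19.2-fold (14.0 to 26.7) and 4.79-fold (3.67 to 6.32) higher. The C-type lectin receptors Clec4e and Clec4d, which sense microbial glycolipids and dead cells, were at 3.32, 848, 0 and 137 CPM and at 29.9, 997, 1.89 and 676 CPM.

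Some higher genes encode inhibitors, here chosen after their values were seen. Il1rn, the interleukin 1 receptor antagonist, was at 0 CPM at 9 dpp, 195 in the 2-day culture, 0 at 14 dpp and 291 in the 7-day culture. Nfkbia, the inhibitor of NF-kB, was at 59.8, 458, 90.5 and 324 CPM, and Slpi, a secreted protease inhibitor, at 3.32, 3255, 0 and 516 CPM. Nfkbia was nearly as high in the other cells of the 2-day culture, at 429 CPM. After thinning to 2000 UMIs, 10 of 10 cells in the 2-day culture and 13 of 17 in the 7-day culture kept at least 3 UMIs of the list, against 4 of 28 at 9 dpp and 5 of 57 at 14 dpp. Thinned germ cells reached that count in 10.8% and 5.0% of 500 cells of the 2-day and 7-day cultures and in 3.6% and 4.8% of 500 uncultured cells at 9 and 14 dpp, against uncultured macrophage shares of 14.3% and 8.77%.

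Among CC chemokines and their receptors, 9 of 12 measured genes were higher and 2 lower at 2 days, with a median log2 ratio of 3.85, and 6 were higher and 2 lower at 7 days, with a median of 1.12, against 8.45% of all genes higher and 22.2% lower at 2 days and 6.14% and 11.2% at 7 days. The 7-day median was short of 2-fold with 100 CPM added (0.63), with the germ cell mean subtracted (0.30) and with genes of at least 1 UMI (0.65). The counts were the same over cells without another class's transcripts, with medians of 3.64 and 1.02. Ccl3, a ligand of Ccr1 that draws monocytes and other leukocytes, was at 56.4 CPM (32.9 to 90.4) at 9 dpp, 8298 (7705 to 8925) after 2 days of culture, 69.8 (49.1 to 96.1) at 14 dpp and 401 (353 to 455) after 7 days, 147-fold (91.2 to 254) and 5.75-fold (4.06 to 8.37) higher. Ccl4, its neighbour and relative, was at 16.6, 1777, 45.2 and 171 CPM. Ccl9, another ligand of Ccr1, stayed high, with 16.6, 1754, 33.9 and 1515 CPM, 106-fold (44.3 to 330.0) and 44.6-fold (28.1 to 75.7) higher. Ccl3, Ccl4, Ccl5, Ccl6 and Ccl9 lie together in the 139 kb at chr11:83525778-83664683, and they did not keep one ratio: from 2 to 7 days Ccl3 was 20.7-fold (17.9 to 24.0) lower and Ccl9 1.16-fold (0.969 to 1.38) lower.

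Ccl2, the main monocyte attractant, was at 242, 6992, 123 and 1632 CPM, 28.9-fold (22.6 to 37.3) and 13.3-fold (10.4 to 17.4) higher. Outside macrophages it was higher as well: 716 CPM after 2 days against 0.199 CPM at 9 dpp, and 71.8 CPM after 7 days against 0.434 CPM at 14 dpp. Some chemokine values rested on single cells: 76.3% of Ccl6, 84.0% of Ccl7 and 94.8% of Ccl12 in the 2-day culture came from 1 cell each. Receptor genes did not follow, with Ccr1 at 186, 172, 49.0 and 92.1 CPM and Ccr2, the receptor for Ccl2, at 63.1, 0, 124 and 0 CPM.

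The neutrophil chemokines Cxcl1, Cxcl2 and Cxcl3 lie within 120 kb at chr5:90786103-90905938. Cxcl2 was at 19.9 CPM at 9 dpp, 2097 in the 2-day culture, 66.0 at 14 dpp and 753 in the 7-day culture, 105-fold (47.5 to 291) and 11.4-fold (8.09 to 16.6) higher. Cxcl3 was at 0, 3095, 0 and 69.1 CPM, at least 311-fold and at least 12.2-fold higher, although only 5 of 10 cells and 2 of 17 cells had it. Cxcl1 was at 0, 630.4, 30.2 and 82.2 CPM, and the other cells of the 2-day culture had 282 CPM.

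Since these chemokines are textbook NF-kB targets, the same windows were searched on either strand for the NF-kB letters GGG, any 2 bases and TTTCC. A match was present in 7 of 19 inflammatory mediators with a promoter in the table, against 1.72% of the genes tested and 1.41% of all promoters. These 19 come from all 24 listed genes and not only from the 11 measured. The 100 bases before the start are shown for Cxcl1 (chr5:90891145-90891244, plus strand), Cxcl2 (chr5:90903799-90903898, plus strand), Cxcl3 (chr5:90786001-90786100, plus strand), Il1rn (chr2:24345271-24345370, plus strand) and Ccl9 (chr11:83578637-83578736, minus strand), with each match in capitals. They were chosen as cultured-macrophage genes with a match in this window.
Cxcl1: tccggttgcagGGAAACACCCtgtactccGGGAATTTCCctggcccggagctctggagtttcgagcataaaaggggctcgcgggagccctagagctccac
Cxcl2: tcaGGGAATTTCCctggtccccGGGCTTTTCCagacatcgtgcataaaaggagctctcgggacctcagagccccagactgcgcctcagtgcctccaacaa
Cxcl3: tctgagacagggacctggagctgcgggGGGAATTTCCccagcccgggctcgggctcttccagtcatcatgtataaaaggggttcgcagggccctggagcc
Il1rn: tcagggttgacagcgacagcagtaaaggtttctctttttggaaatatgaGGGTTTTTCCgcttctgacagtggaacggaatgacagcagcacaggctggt
Ccl9: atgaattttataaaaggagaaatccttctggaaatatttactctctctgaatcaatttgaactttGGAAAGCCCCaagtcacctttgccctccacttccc

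All 3 Cxcl windows hold the run GGGAATTTCC, Cxcl1 and Cxcl2 hold a further match, and Ccl9 holds the site on the other strand. In the lists of resident scavenger, lysosome and proliferation genes the NF-kB letters were in 1 of 11, 0 of 15 and 1 of 15 promoters. Of the chemokine and receptor genes, most of which were also higher at 2 days, 1 of 7 had a match, and this was Ccl9. In the complement list it was 1 of 5. A match describes letters in a window and no binding was measured.

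**Figure D2:**
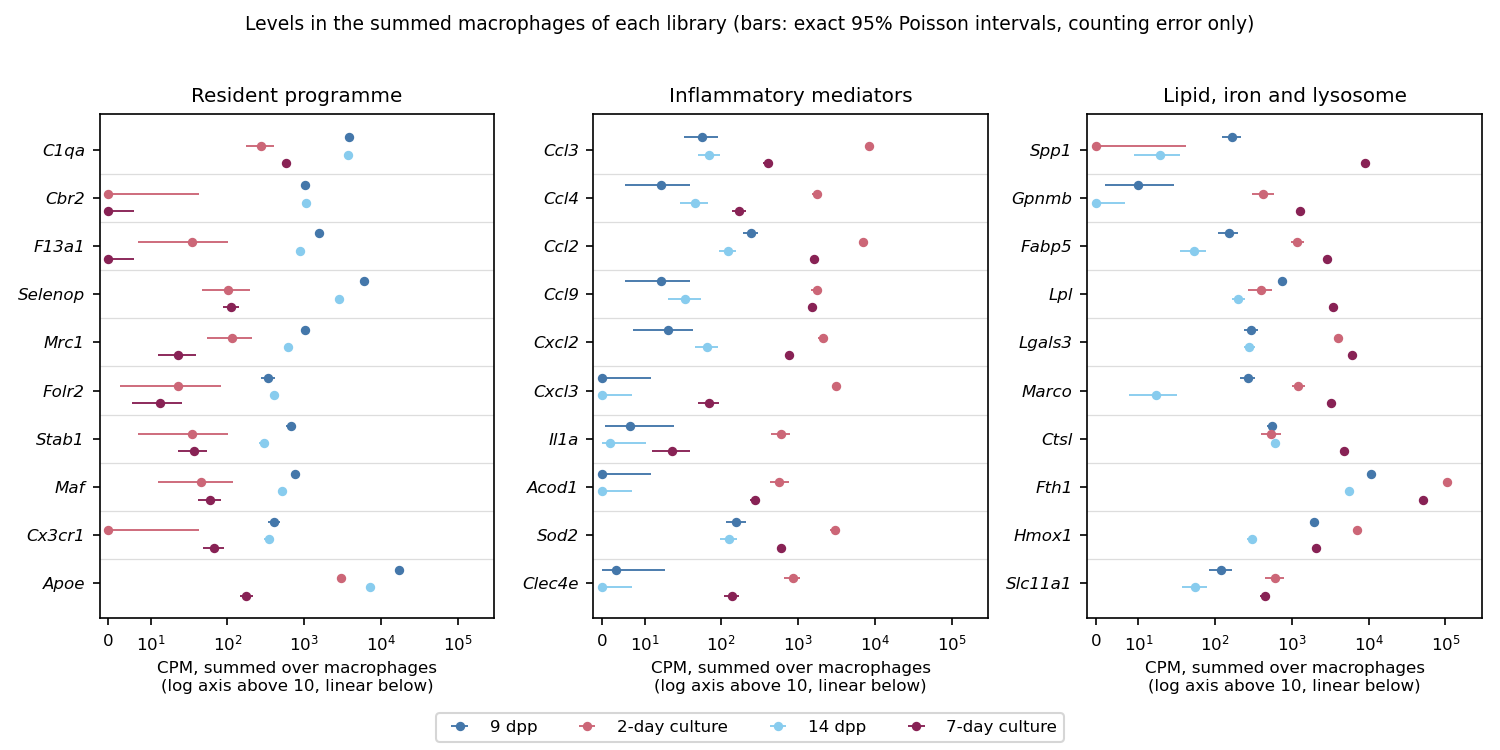
Points are the level of 30 genes, in CPM summed over the macrophages of a library, on an axis that is linear to 10 and logarithmic above, and bars are exact 95% Poisson intervals. Resident genes such as Cbr2 lie left in both cultures, mediators such as Ccl3 lie farthest right at 2 days, and Spp1, at 9053 CPM, and Gpnmb, at 1271 CPM, lie farthest right at 7 days.

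Part of the mediators were lower in the later culture than in the earlier one. In that comparison 6 of the 11 inflammatory mediators were lower and none higher, with a median log2 ratio of -1.45, where 5.23% of all genes were lower and 13.1% higher. Among the 12 chemokine and receptor genes 6 were lower and none higher, with a median of -1.41. Over cells without another class's transcripts 6 and 6 were lower and none higher, with medians of -1.05 and -1.32. The 5 genes lower by the largest ratio were Saa3, Ccl5, Cxcl3, Ccl3 and Ccl6. Saa3, an acute phase protein gene, was at 5066 CPM in the 2-day macrophages with 79.0% of its UMIs from 1 cell, and at 10312 CPM in the other cells of that library.

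Genes of lipid handling were mixed at 2 days and mostly higher at 7 days. Of 13 measured genes 5 were higher and 4 lower in the 2-day culture over 9 dpp, against 8.45% and 22.2% of all genes, with a median log2 ratio of 0.69, and 8 were higher and 2 lower in the 7-day culture over 14 dpp, against 6.14% and 11.2%, with a median of 2.72. From the 2-day to the 7-day culture 7 were higher and 2 lower, against 13.1% and 5.23% of all genes, with a median of 1.0. Without the cells holding another class's transcripts the counts were 4 and 5 in the 2-day pair and 8 and 2 in the 7-day pair, with medians of 0.70 and 2.88. Members such as Fabp4 and Gpnmb reached the count limit mainly through cultured macrophages, so the counts of higher genes are partly set by that limit.

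Spp1, which encodes the secreted adhesion protein osteopontin, had no UMI in the 2-day culture and stood at 166 CPM at 9 dpp, 18.9 at 14 dpp and 9053 in the 7-day culture. At 9 dpp it was found in 4 of 29 cells with 78.0% of its UMIs in 1 of them, so the 2-day value of at least 4.83-fold lower rests mainly on that cell. It was 480.2-fold (261 to 1002) higher in the 7-day pair, and at least 263-fold higher in the 7-day than in the 2-day culture. UMIs were found in 14 of 17 cells of the 7-day culture, with a median of 1291 CPM per cell, and 43.2% of them came from 1 cell. Of the genes tested, Spp1 had the largest log2 ratio of the 7-day culture over both 14 dpp and the 2-day culture.

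Gpnmb, a glycoprotein of lipid-laden macrophages, was at 9.96, 424, 0 and 1271 CPM, 42.6-fold (13.5 to 216) and at least 225-fold higher. Fabp5 and Fabp4, carriers of fatty acids inside the cell, were at 149, 1181, 52.8 and 2839 CPM and at 6.64, 0, 0 and 528 CPM. Fabp4 was thus above the floor in the 7-day culture alone, in 12 of 17 cells. Lpl, which frees fatty acids from triglycerides, was at 747, 389.7, 199.8 and 3482 CPM, 1.92-fold (1.33 to 2.84) lower at 2 days and 17.4-fold (14.3 to 21.4) higher at 7 days.

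Lgals3, the galectin 3 gene, was high at both times, with 292, 4035, 277 and 6049.5 CPM, 13.8-fold (10.9 to 17.7) and 21.8-fold (18.5 to 25.9) higher. The fatty acid receptor Cd36 was at 305, 1100.3, 132 and 1637 CPM and the lipid droplet coat gene Plin2 at 425, 974, 283 and 1974 CPM. Against these stood Abca1, which exports cholesterol, at 193, 80.2, 285 and 47.7 CPM, 2.40-fold (1.09 to 6.23) and 5.97-fold (3.99 to 9.21) lower, and Apoe as above. Trem2, a lipid-sensing receptor, was at 963, 287, 445 and 773 CPM, lower in the 2-day pair and within 2-fold in the 7-day pair.

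Lysosomal genes did not differ as one set. Of 19 measured genes 3 were higher and 5 lower at 2 days, near the 8.45% and 22.2% of all genes, with a median log2 ratio of 0.10, and 7 were higher and none lower at 7 days, against 6.14% and 11.2%, with a median of 0.31. When cells with another class's transcripts were left out, 2 were higher and 6 lower at 2 days and 6 higher and 5 lower at 7 days, with medians of 0.03 and -0.01. Ctsl, cathepsin L, was at 558, 539, 605 and 4839 CPM, 8.0-fold (7.12 to 9.0) higher in the 7-day pair only, and in the other cells of the libraries it was at 1215, 1419, 1459 and 1263 CPM. Ctsd, cathepsin D, was at 1627, 1765, 692 and 3364 CPM and Lipa, lysosomal acid lipase, at 106, 252, 88.6 and 543 CPM. On the other side, Grn, progranulin, was at 1945, 539, 1404 and 893 CPM.

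Receptors and bridging molecules for dead cells were mostly lower in the 2-day pair. Of 8 measured genes of that list 6 were lower and 2 higher at 2 days, against 22.2% and 8.45% of all genes, with a median of -1.52, and 3 were lower and 2 higher at 7 days, against 11.2% and 6.14%, with a median of -0.82. Without the cells holding another class's transcripts 6 of 7 were lower at 2 days and 5 of 7 at 7 days, with 1 higher each and medians of -1.95 and -1.23. With 100 CPM added the 2-day median was -0.53, short of 2-fold, and the 7-day median was past it with the deepest cell of each library left out (-1.11), with genes of at least 200 UMIs (-1.12) and with the germ cell mean subtracted (-1.87). Gas6, which bridges dying cells to receptors of the Mer family, was at 534 CPM at 9 dpp, 45.8 in the 2-day culture, 466 at 14 dpp and 161 in the 7-day culture. Its UMIs in the 2-day culture all came from 1 cell. The members higher in both pairs were Cd36 and Cd300lf, a receptor for exposed phospholipid, at 3.32, 206, 11.3 and 44.4 CPM. Without the cells holding another class's transcripts the 7-day log2 ratio of Cd300lf was 0.87, short of 2-fold.

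**Figure D3:**
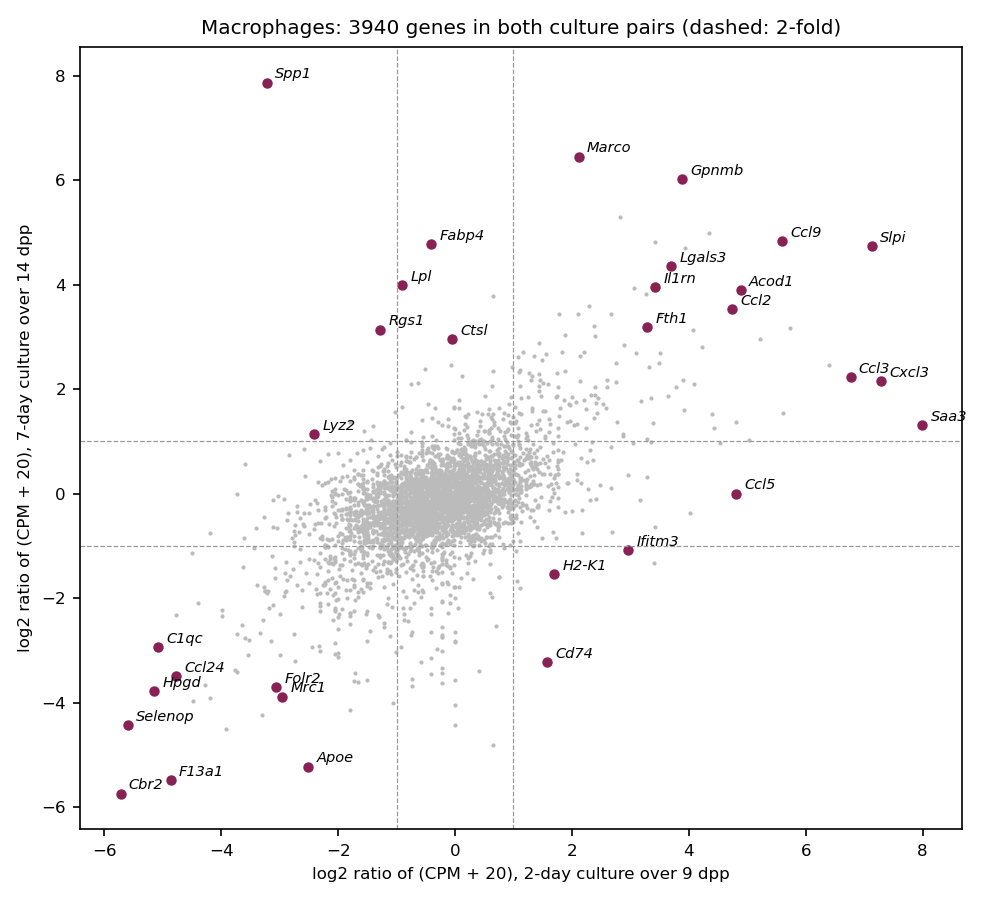
Each point is 1 of 3940 genes in macrophages, with the log2 ratio of (CPM + 20) of the 2-day culture over 9 dpp on the x axis and of the 7-day culture over 14 dpp on the y axis, and dashed lines at 2-fold. Both cultures have Cbr2, F13a1 and Selenop low and Slpi, Ccl9 and Gpnmb high, while Spp1 stands at upper left, at -3.22 and 7.87.

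Over all genes, 140 of 3940 (3.55%) were higher in both pairs and 262 (6.65%) lower in both, whereas 7 (0.178%) were higher at 2 days and lower at 7 days and 8 (0.203%) the reverse. Without the cells holding another class's transcripts 140 and 244 of 2940 genes were higher and lower in both. The 10 genes higher in both by the largest smaller ratio were Ccl9, Slpi, Clec4d, Mmp12, Acod1, Gpnmb, Lgals3, Ccl2, Acp5 and Il1rn. Acp5, an acid phosphatase of osteoclasts and tissue macrophages, was at 9.96, 321, 5.66 and 258 CPM.

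Iron storage took up a large part of the cultured macrophages' mRNA. Of 10 measured iron and haem genes 5 were higher and 1 lower in each pair, against 8.45% of all genes higher and 22.2% lower at 2 days and 6.14% and 11.2% at 7 days, with median log2 ratios of 0.72 and 1.39. With genes of at least 1 UMI the 7-day median was 0.73, and with genes of at least 200 UMIs the 2-day median was 1.20. Over cells without another class's transcripts 4 were higher and 2 lower at 2 days and 5 higher and 2 lower at 7 days, with medians of 0.60 and 1.08. Fth1, the ferritin heavy chain gene, was at 10729 CPM (10362 to 11106) at 9 dpp, 105138 (102998 to 107312) after 2 days of culture, 5584 (5385 to 5789) at 14 dpp and 51079 (50512 to 51650.0) after 7 days, 9.80-fold (9.41 to 10.2) and 9.15-fold (8.81 to 9.50) higher. Ftl1, the light chain gene, was at 24652, 53114, 10846 and 45309 CPM, 2.15-fold (2.08 to 2.24) and 4.18-fold (4.06 to 4.30) higher. In the other cells Fth1 was at 1211, 3709, 1388 and 2316 CPM.

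Both ferritin genes together had a median per cell of 30734 CPM at 9 dpp, 147952 in the 2-day culture, 18165 at 14 dpp and 94181 in the 7-day culture. Single cells overlapped in both pairs: the lowest cell of the 2-day culture, at 74919 CPM, lay below the highest at 9 dpp, at 87930, and the lowest of the 7-day culture, at 18967, below the highest at 14 dpp, at 41620. CPM are shares of all UMIs of the cells, so the larger ferritin share leaves a smaller one to all other genes together.

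Other members of the iron list went both ways. Hmox1, which breaks down haem, was at 1962, 7037, 302 and 2081 CPM, 3.59-fold (3.20 to 4.02) and 6.90-fold (5.85 to 8.18) higher. Slc48a1, which carries haem out of the lysosome, was at 292, 745, 86.7 and 461 CPM and Slc11a1, which carries iron out of it, at 119.5, 596, 54.7 and 441 CPM. Slc40a1, the only known cellular iron exporter, went the other way, with 425, 264, 175 and 46.1 CPM, and was 3.81-fold (2.47 to 6.04) lower in the 7-day pair. Tfrc, the transferrin receptor for iron uptake, was at 63.1, 22.9, 28.3 and 32.9 CPM, with log2 ratios of -0.95 and 0.13, or -1.57 and -0.03 over cells without another class's transcripts, and Ncoa4, which hands ferritin over for breakdown, was at 186, 68.8, 109 and 59.2 CPM and lower in the 2-day pair. Prdx1, a peroxide-removing enzyme picked after its values were seen, had medians per cell of 2210, 17171, 1519 and 8913 CPM.

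Glycolysis genes were mostly higher in the 7-day pair. Of 10 measured genes 2 were higher and none lower at 2 days, where 8.45% of all genes were higher, with a median log2 ratio of 0.85, and 7 higher and none lower at 7 days, where 6.14% were higher, with a median of 1.26. Other cells had medians of 0.01 and -0.09. Over macrophages without another class's transcripts 8 genes were measured, of which 1 was higher at 2 days and 6 at 7 days, with medians of 0.74 and 1.63. Pkm, the pyruvate kinase gene, was at 737, 1857, 535 and 2615 CPM, 2.52-fold (2.04 to 3.10) and 4.88-fold (4.30 to 5.56) higher. Pgk1, phosphoglycerate kinase, was at 242, 493, 153 and 908 CPM and Gapdh at 1325, 1834, 1171 and 3426 CPM.

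**Figure D4:**
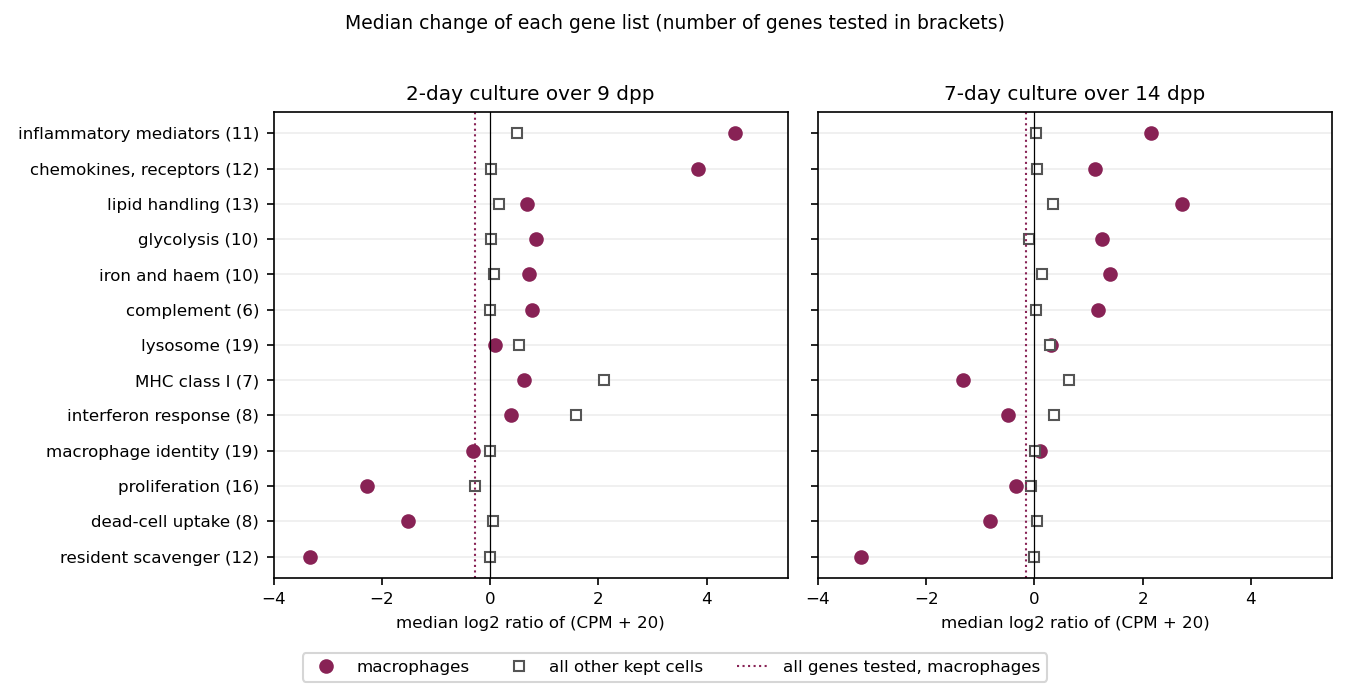
Filled circles are the median log2 ratio of (CPM + 20) of the gene lists drawn in macrophages, with its number of genes in brackets, open squares the same list in all other cells of the library, and the dotted line the median of all genes in macrophages, for the 2-day culture over 9 dpp (left) and the 7-day culture over 14 dpp (right). Of the 13 lists drawn, inflammatory mediators stand highest at 2 days (4.53) and lipid handling at 7 days (2.72), and the resident scavenger list is lowest in both (-3.32 and -3.21).

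Genes of antigen display by MHC class I, which shows peptides from inside the cell to T cells, differed in direction between the pairs, a difference that was not tested. Of 7 measured genes 2 were higher and none lower at 2 days, with a median of 0.62, and 5 were lower and none higher at 7 days, with a median of -1.32. With 100 CPM added the 7-day median was -0.79, short of 2-fold. In the other cells of the same libraries the medians of these genes were 2.11 and 0.64, against -0.04 and 0.01 over all genes there. The shares of all genes higher and lower in the macrophages were 8.45% and 22.2% at 2 days and 6.14% and 11.2% at 7 days. Over macrophages without another class's transcripts 2 of 6 genes were higher and 2 lower at 2 days, and 5 were lower at 7 days, with medians of 0.66 and -1.70. The class I heavy chain gene H2-K1 was at 428 CPM at 9 dpp, 1433 in the 2-day culture, 943 at 14 dpp and 311 in the 7-day culture, 3.35-fold (2.59 to 4.31) higher and then 3.03-fold (2.56 to 3.60) lower. B2m, the light chain gene, was at 4233, 7106, 4587 and 1495 CPM. In the other cells B2m was at 169.7, 2234, 147 and 755 CPM, so macrophages exceeded them 24.9-fold at 9 dpp and 1.98-fold in the 7-day culture.

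Class II molecules, which present engulfed antigens, were scarce, and 3 of 11 listed genes reached the count limit. Over H2-Aa, H2-Ab1, H2-Eb1 and Cd74, 12 of 59 macrophages at 14 dpp had at least 5 UMIs, against 0 of 29 at 9 dpp, 1 of 10 in the 2-day culture and 0 of 17 in the 7-day culture. This limit was chosen after the data were seen, and at 14 dpp 2 cells had 3 or 4 of these UMIs and 4 had 5 to 7. In macrophages free of another class's transcripts, 7 of 42 cells at 14 dpp reached it. After thinning to 2000 UMIs, at least 3 UMIs of the whole class II list were left in 9 of 57 cells at 14 dpp, 2 of 28 at 9 dpp, 1 of 10 and 0 of 17.

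The 14 dpp cells at or past that limit had fewer resident transcripts. Their resident scavenger genes had a median of 1221 CPM per cell against 15423 in the other 47 cells, or 1751 against 16904 for 7 and 35 cells without the ones holding another class's transcripts. Within those 7 and 35 cells, Cbr2 was at 35.8 and 1889.7 CPM, Folr2 at 17.9 and 769 CPM and F13a1 at 71.6 and 1563 CPM. Ccr2, a receptor of monocytes and of cells recently derived from them, had UMIs in 6 of the 7 cells and in 4 of the 35, at 680.5 and 73.6 CPM, and Lsp1 and Coro1a, 2 actin-binding proteins of leukocytes, were at 1361 and 164 CPM and at 2059 and 495 CPM. C1q was found in every cell of both sets, with medians of 10289 and 13710 CPM, and the median of the 16 proliferation genes was 5473 and 704 CPM. Over all 12 and 47 cells the C1q medians were 6952 and 12119 CPM, with C1q in 11 of the 12 cells, and the proliferation medians 998 and 588 CPM. These cells were picked by their class II counts and no test was made, so the values describe a range of cells within 1 library.

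**Figure D5:**
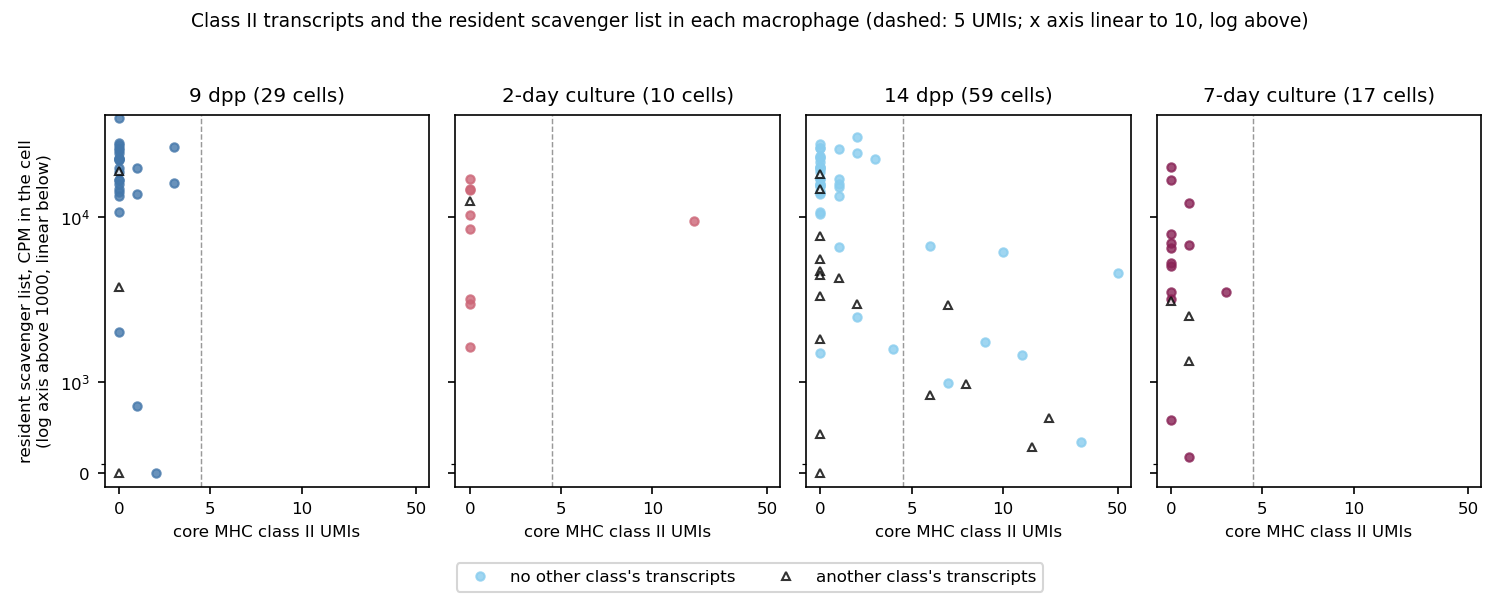
Each point is 1 macrophage, with its UMIs of 4 core MHC class II genes on the x axis (linear to 10, logarithmic above) and the CPM of 15 resident scavenger genes on the y axis (linear to 1000, logarithmic above), with triangles for cells that held another class's transcripts and a dashed line just below the limit of 5 UMIs. Right of the line lie 12 cells at 14 dpp and 1 in the 2-day culture, and the 12 cells have between 289 and 6673 CPM of the resident genes.

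Transcripts of dividing cells were near the floor in the 2-day culture and present elsewhere. Of 16 proliferation genes 15 were lower and none higher in the 2-day culture over 9 dpp, 1 was lower and none higher in the 7-day culture over 14 dpp, and 14 were higher and none lower in the 7-day over the 2-day culture, where 22.2% and 11.2% of all genes were lower and 13.1% higher. Summed, they were at 1746 CPM at 9 dpp, 103 in the 2-day culture, 1929 at 14 dpp and 1520 in the 7-day culture. Top2a, the topoisomerase of dividing cells, was at 93.0, 0, 164 and 87.2 CPM and Stmn1, a microtubule regulator, at 392, 22.9, 334 and 238 CPM.

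After thinning to 2000 UMIs, at least 3 proliferation UMIs were left in 11 of 28 macrophages at 9 dpp and 0 of 10 after 2 days of culture (upper limit 30.8%), and in 17 of 57 at 14 dpp and 8 of 17 after 7 days. The median log2 ratio of the list in the 2-day pair was -2.27, or -1.48 with the 11 genes that had no UMI set at the floor and -0.93 with 100 CPM added, and it came to 0.00 once the mean of germ cells, which divide themselves, was subtracted, which also turned the 7-day median to 1.39. Without the cells holding another class's transcripts 14 of 14 measured genes were lower in the 2-day pair, and 9 of 14 in the 7-day pair, with a median of -1.17 in place of -0.33.

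Between 9 and 14 dpp the uncultured macrophages differed less. Higher at 14 dpp were 171 of 3940 genes (4.34%) and lower 76 (1.93%), with a median log2 ratio of 0.03. Without the cells holding another class's transcripts 74 and 44 of 2940 genes were higher and lower. The genes higher by the largest ratios, among them Cyp11a1, Akr1cl, Hsd3b1 and Hsd3b6, include enzymes of steroid synthesis made by Leydig cells and moved with the Leydig markers given above. Without those cells Cyp11a1 had a log2 ratio of 0.74 and Hsd3b6 of 0.00.

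Other differences held up without those cells. Marco was 15.7-fold (7.85 to 35.5) lower at 14 dpp, and Hmox1, from 1962 to 302 CPM, was 6.50-fold (5.45 to 7.79) lower, with log2 ratios of -2.76 and -2.47 when those cells were left out. Lpl, 3.74-fold (2.95 to 4.75) lower, and Cebpb, a transcription factor of inflammatory and emergency myeloid genes, at 146 and 33.9 CPM, went the same way. The interferon-inducible Ifi27l2a was higher, at 159 and 1005 CPM. Of the 12 resident scavenger genes 3 were lower and none higher from 9 to 14 dpp, against 1.93% and 4.34% of all genes, with a median of -0.67. This difference was smaller when those cells were left out, with 1 lower and a median of -0.30.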

How the data were processed

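Droplet single-cell libraries of 4 groups, 1 sample each, were compared. The authors deposited raw UMI counts per gene and barcode, made with Cell Ranger 3.0.2 and genome build mm10 per the submitters' processing notes. The number of animals per library is not given in the sources used here. The 31053 gene IDs have 31017 symbols, and counts of shared symbols were summed. Library totals were 34491701 (2-day culture), 38632065 (7-day culture), 60829941 (9 dpp) and 58369264 UMIs (14 dpp). UMIs of gated cells were summed per library and scaled to CPM with exact Poisson 95% intervals, and shares have Clopper-Pearson intervals, all covering counting error only. Mitochondrial genes were left out of the comparisons, which use genes with at least 50 UMIs, 20 CPM added and a 2-fold limit, with no test because each group is 1 library. Cells were thinned to 2000 UMIs, and germ cells with at least 3 Ddx4 and Dazl UMIs served as background. In an alternative their mean count per cell was subtracted, which is that of a whole germ cell and not a level of free RNA. Median UMIs of germ cells and macrophages were 11786 and 10199 (9 dpp), 4040.5 and 8213 (2-day culture), 7921.5 and 8236 (14 dpp) and 6980 and 37246 (7-day culture). The subtraction thus removed a smaller part of macrophage counts in the 7-day culture.

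Genes are named by 3 rules: the 15 most enriched over other cells in every library, the 10 higher and 10 lower in both culture pairs by the smaller ratio, and the 5 higher and 5 lower in each of the other comparisons. Members of the gene lists are named as well, and a few genes that these rules name are not reported here. Members and lists were chosen with earlier results of these data known. Counts of near-identical copies (ferritin, H2, Cxcl, Ccl, Hsd3b and Saa genes) are uncertain, as the counting could split them. Positions are from GENCODE M21 and promoters from RefSeq, both on GRCm38. The scripts, tested on simulated data, used Python 3.11.15, NumPy 2.4.6, pandas 2.3.3, SciPy 1.17.1, Scanpy 1.11.5 (Scrublet, expected rate 0.06) and Matplotlib 3.10.9. Alternatives changed the gate, cell filter, doublets, pseudocount, scaling, cell weighting, subtraction of the germ cell mean, gene filter, thinning and the deepest cell.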

Additional observations from a re-analysis of the deposited data

Results flagged for a closer look

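For 15 genes the macrophages of the 2-day culture differed from 9 dpp by at least 2-fold in one direction and those of the 7-day culture from 14 dpp by at least 2-fold in the other. The values below are the log2 ratio of the 7-day pair minus that of the 2-day pair. With 1 library per group the difference was not tested for any of them. These values are over all macrophages, also the 17 at 14 dpp that held another class's transcripts, and calls near 2-fold may depend on those cells.

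Higher at 2 days and lower at 7 days were 7 genes. For Cd74, the class II invariant chain, the difference was -4.79 (1.57 after 2 days against 9 dpp and -3.23 after 7 days against 14 dpp), and its UMIs in the 2-day culture all came from 1 cell. Ass1, which makes argininosuccinate on the way to arginine, differed by -4.73 (3.41 and -1.32), and Ifitm3, an interferon-induced membrane protein, by -4.05 (2.97 and -1.08). Ass1 had 3 UMIs at 9 dpp and 188 at 14 dpp, and 50% of the Ifitm3 UMIs in the 2-day culture came from 1 cell. For H2-K1 the difference was -3.24 (1.70 and -1.54). Alas1, the first enzyme of haem synthesis, had -2.91, the interferon-inducible Rtp4 -2.73 and Rnf34, a ubiquitin ligase, -2.13. The Alas1 value rests on 7 UMIs in the 2-day culture and 8 at 9 dpp, against 191 at 14 dpp.

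Lower at 2 days and higher at 7 days were 8 genes. Spp1 had the largest difference, 11.08 (-3.22 and 7.87), with 78.0% of its 9 dpp UMIs from 1 cell. Rgs1, a brake on chemokine receptor signals, had 4.42, with all its 9 dpp UMIs from 1 cell. For Lyz2 the value was 3.55 (-2.41 and 1.14), for the growth factor gene Igf1 3.18 (-1.80 and 1.38) and for Ccnd1, cyclin D1, 2.77 (-1.56 and 1.20). Bambi, a decoy receptor of the TGF-beta family, had 2.70, with no UMI in the 2-day culture and 10 at 9 dpp (33.2 CPM, under the 2-day floor of 34.4 CPM), so a lower level at 2 days is not shown. The difference was 2.58 for the leukocyte surface gene Cd52, with most of its 9 dpp UMIs from 1 cell, and 2.46 for Sdf2l1, of the endoplasmic reticulum.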

How the results depend on the processing

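No paired analysis was possible because each group holds 1 library. With no replicates, and 87247 macrophage UMIs in the 2-day culture, levels under 34.4 CPM rest there on fewer than 3 UMIs. Over the alternatives other than Scrublet's calls, 279 of 308 list medians, 1709 of 1800 values of named genes and 71 of 110 gene counts stayed on their side of the 2-fold limit or, for counts, within 1.5 times. No list median changed its call with the stricter gate or the stricter cell filter, which left out at most 2 macrophages of a library, or with median-of-ratios scaling, which moved the median of all genes in the 7-day pair to 0.04 and in the 7-day over the 2-day culture to 0.27. Leaving out Scrublet's calls leaves macrophage levels as they are by construction, as it called no macrophage.

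With 5 CPM added, 275 genes were higher and 131 lower at 14 dpp over 9 dpp, and 839 and 315 in the 7-day over the 2-day culture. With 100 CPM added, medians were -0.79 (MHC class I, 7-day pair), 0.63 (chemokines, 7-day pair), -0.53 (dead-cell uptake, 2-day pair), -0.93 (proliferation, 2-day pair) and 0.69 (complement, 7-day pair). Higher and lower counts were then 159 and 195 (2-day pair), 110 and 150 (7-day pair), 58 and 22 (14 over 9 dpp), 77 and 77 (7-day over 2-day culture) and 67 and 64 (both pairs). Weighting cells equally gave complement a 7-day median of 0.94. Leaving out the deepest cell of each library gave dead-cell uptake -1.11 (7-day pair) and Aard 0.13 (2-day pair).

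Subtracting the germ cell mean gave macrophage identity -1.09 and -1.12 in the 2-day and 7-day pairs, chemokines 0.30, interferon response -1.40, dead-cell uptake -1.87 and complement 0.14 in the 7-day pair, proliferation 0.00 and 1.39, and glycolysis 1.14 in the 2-day pair. Higher genes then numbered 1054 (2-day pair), 1782 (7-day pair), 527 with 276 lower (14 over 9 dpp), 1384 with 318 lower (7-day over 2-day culture) and 753 (both pairs). Reversals under it were Lyz2 (-0.10, 7-day pair) and, at 0.00, Mki67 and Top2a (2-day pair), Cst9, Clu and Aard (both pairs) and Cst12 (7-day pair). Counts were scaled to CPM again after the subtraction, and the part of that rescaling in these changes was not tested.

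With genes of at least 200 UMIs, medians were 1.22 (MHC class I), 1.20 (iron) and 1.43 (complement) in the 2-day pair and -1.84 (interferon response) and -1.12 (dead-cell uptake) in the 7-day pair, and counts were 123 and 242, 115 and 144, 42 and 38, 150 and 71, and 76 and 104, in the order above. With genes of at least 1 UMI the 7-day pair had 0.98 (inflammatory mediators), 0.65 (chemokines), 0.73 (iron) and 0.0897 (complement), and counts were 646 and 1453 (2-day pair), 729 lower (7-day pair), 349 and 131 (14 over 9 dpp) and 452 lower (7-day over 2-day culture). These 2 gene filters test fewer or more genes by construction.

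Leaving out cells with another class's transcripts, chosen after the data were seen, gave a 14 dpp share of 0.664%, 7-day medians of -1.19 (interferon response), -1.23 (dead-cell uptake), -1.17 (proliferation) and 0.71 (complement), counts of 74 and 44 at 14 over 9 dpp, Mmp12 at 0.00 and Aard at 0.0205 in the 2-day pair, and Hsd3b6 and Trdc at 0.00 at 14 over 9 dpp. It also left fewer genes to test, 2940 in place of 3940.

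Shares of cells with at least 3 UMIs of a list came without thinning to 82.4% (C1q, 7-day culture), 100%, 65.5% and 64.4% (inflammatory, 7-day culture, 9 and 14 dpp), 94.1%, 69.0% and 66.1% (proliferation) and 41.2%, 62.1% and 50.8% (class II). Thinned to 1000 UMIs, they were 0% (inflammatory, 9 dpp), 13.8% (proliferation, 9 dpp) and 0% and 6.78% (class II, 9 and 14 dpp). With 2 UMIs required they were 28.1% (inflammatory) and 29.8% (class II) at 14 dpp. Apart from the gene filters, the cause of these changes was not tested.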

Other observations

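Further gene lists gave smaller or mixed differences, and runs of values are again in the order 9 dpp, 2-day culture, 14 dpp and 7-day culture. The shares of all genes to set beside each count are 8.45% higher and 22.2% lower in the 2-day pair and 6.14% and 11.2% in the 7-day pair. Of 8 measured interferon response genes 3 were higher and none lower in the 2-day over the 9 dpp macrophages, with a median log2 ratio of 0.39 against 1.59 in the other cells, and 2 were higher and 3 lower in the 7-day over the 14 dpp macrophages, with a median of -0.48 against 0.36. The 7-day median was past 2-fold with the germ cell mean subtracted (-1.40) and with genes of at least 200 UMIs (-1.84). Without the cells holding another class's transcripts, 1 of 4 was higher at 2 days and 3 of 4 lower at 7 days, with medians of 0.25 and -1.19. Irf7, the factor that amplifies the interferon response, was at 6.64 CPM at 9 dpp, 413 in the 2-day culture, 22.6 at 14 dpp and 13.2 in the 7-day culture. Ifitm3 was at 26.6, 344, 204 and 85.5 CPM in macrophages and at 65.1, 1546, 91.2 and 357 CPM in the other cells, so outside macrophages it was higher in both cultures.

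Complement genes other than C1q gave mixed differences. Of 6 measured genes of that list 2 were higher and 1 lower at 2 days, with a median of 0.77, and 3 higher and 1 lower at 7 days, with a median of 1.18, or 2 higher and 1 lower in each pair, with medians of 0.63 and 0.71, when those cells were left out. The 7-day median was also short of 2-fold with 100 CPM added (0.69), cells weighted equally (0.94), the germ cell mean subtracted (0.14) and genes of at least 1 UMI (0.0897). C3ar1, the receptor for the C3a fragment, was at 242, 688, 202 and 566 CPM and Itgb2, the beta chain of complement receptor 3, at 66.4, 275, 69.8 and 230.3 CPM. Among 9 Fc and ITAM receptor genes 2 were higher and 4 lower at 2 days, with a median of -0.14, and 1 was higher and none lower at 7 days, near the 6.14% of all genes, with a median of 0.32. When those cells were left out the counts were 2 and 4, and 1 and 1, with medians of -0.61 and -0.11. Clec4n, the receptor Dectin-2 for fungal mannans, was the one higher in both, at 813, 3221, 369.5 and 1235 CPM.

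Early response genes, which also react to dissociation, did not differ as one set. Of 15 measured genes 5 were higher and 3 lower at 2 days, with a median of -0.41, and 2 higher and 4 lower at 7 days, with a median of -0.11. When those cells were left out, 5 of 12 were higher and 2 lower at 2 days and 4 higher and 2 lower at 7 days, and the medians changed sign to 0.09 and 0.80. Atf3, a stress factor, was at 9.96, 138, 11.3 and 232 CPM, and Klf2, a factor of quiescent cells, at 475, 34.4, 596 and 115 CPM, while Fos was at 292, 22.9, 279 and 212 CPM. In the other cells the median of the list at 7 days was 1.05, against 0.01 over all genes there.

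Growth factor and lineage genes gave few counts. Csf1, the ligand of Csf1r, was at 3.32, 34.4, 7.54 and 11.5 CPM in macrophages, Csf3 was found in 2 cells of the 2-day culture, and Csf2 had no UMI in any of the 4 libraries' macrophages. Igf1 was at 889.7, 241, 394 and 1056 CPM. Of 4 measured monocyte genes none was higher and 1 lower in the 2-day over the 9 dpp macrophages, with a median of -0.13, and 3 were higher and 1 lower in the 7-day over the 14 dpp macrophages, with a median of 1.51. The higher ones include S100a4 and S100a6, calcium-binding proteins of motile myeloid cells, at 103, 45.8, 199.8 and 671 CPM and at 199, 321, 313 and 1368 CPM. Crip1, which is among the 5 genes higher in the 7-day than in the 2-day culture by the largest ratio, was at 1474, 45.8, 2128 and 954 CPM and so was lower in both cultures than in its uncultured pair.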
